A study of Mus musculus with 36 samples.

Results

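The blood clotting cascade and the complement system run on plasma proteins that are made largely by the liver, and the transcripts of 35 such genes were followed here in mouse liver. The members were listed by name, with earlier results of these data known: 7 procoagulant enzymes and cofactors, 2 genes of the contact system, 5 anticoagulants, 4 genes of fibrinolysis and its inhibitors, 7 genes of the lectin and classical complement arm with its inhibitors, 3 of the C3 convertase and the alternative arm, and 7 of the terminal complement pathway with its inhibitor. All 35 were listed on 1 row of the deposited tables and all 35 passed the filter on low values, among 13215 genes tested of 24346 symbols listed.

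The animals were wild-type male C57BL/6JRj mice aged 16 weeks, housed 5 per cage with food at all times and 12 h of light a day from zeitgeber time 0 (ZT0). The intermittent hypoxia (IH) mice breathed air whose oxygen fraction fell from 21% to 5% and back 60 times an hour from ZT0 to ZT8 each day for 4 weeks, a protocol that models sleep apnea, and the control mice received matched cycles of air for the same 4 weeks. Whole livers were taken at 6 time points 4 h apart from 3 mice per condition and time point, which gave 36 libraries of polyadenylated RNA in 12 groups, 18 libraries per condition. Values are FPKM, fragments scaled to transcript length and to the mapped fragments of the library, and differences are on the log2(FPKM + 1) scale.

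In coagulation, serine proteases that circulate as inactive precursors activate each other in sequence until thrombin (F2) cuts fibrinogen into fibrin. Serpins and the protein C pathway restrain the cascade, and plasmin (Plg) later dissolves the clot. In complement, mannan-binding lectins, antibodies or spontaneous turnover lead to cleavage of C3, after which C5 (Hc), C6, C8 and C9 assemble into a pore in the target membrane. Hepatocytes secrete most of these proteins, and many complement genes are also raised in the acute-phase response, the change in liver secretion that follows inflammation.

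The deposited values hold no counts, so the sequencing depth behind them is unknown. The steps between low values put the deepest library at 1.67 times the depth of the shallowest, and no libraries were identical. The 8 hepatocyte markers summed to between 36431 and 63140 FPKM in every library, and Alb, Hnf4a and Tat were at 0 in none. In 3 libraries Saa1, an acute-phase gene, was above 10000 FPKM: it was 22865 in IH ZT0 replicate 2, 20546 in control ZT12 replicate 2 and 12912 in control ZT16 replicate 3, and it lay between 19.1 and 2470 FPKM in the other 33. Results that rest on these libraries are given with and without them. The acute-phase list of 26 genes summed to between 58200.5 and 89131 FPKM in these 3 libraries and to between 7601 and 20132 FPKM in the other 33. The members summed to between 8963 and 12668 FPKM, or 1.5% to 2.17% of all FPKM in a library.

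Members shared genomic neighbourhoods and, in part, promoter letters. In GENCODE vM21 (GRCm38, the mm10 build of the files), F7 (chr8:13026034-13035809), F10 (chr8:13037308-13056676) and Proz (chr8:13060914-13076026) lay in a row on the plus strand, with gaps of 1498 and 4237 bases. F11 (chr8:45241174-45262031) and Klkb1 (chr8:45266689-45294859) were 4657 bases apart on the minus strand. Cfb (chr17:34856374-34862518) ended 85 bases before C2 (chr17:34862604-34898265), and both overlap Gm20547 on the same strand, so reads could be split among the 3 genes. C8b (chr4:104766317-104804548) and C8a (chr4:104815679-104876398) were 11130 bases apart on opposite strands. In all, 14 of 35 members overlapped another annotated gene, 10 of them on the opposite strand, and whether the values were made with strand is not given in the sources used here.

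RefSeq promoter windows (GRCm38.p6) were matched to 28 of the 35 members by symbol. C2, Cfb, Cfi, Masp1, Plg, Proc and Serping1 had no match. In the 250 bases before the start, the letters AGGTCA on either strand, the core bound by ROR and REV-ERB clock factors and shared with other nuclear receptors, stood in 9 of 28 windows (32.1%) against 13.8% of all 27025 windows of that length. In F5, Mbl2, C6, F7, F2, F10 and C8b they began between 20 and 57 bases upstream of the start, in Serpinf2 126 bases and in C3 243 bases upstream. The windows below are shown because they belong to Serpinf2 and F5, which had the smallest rhythm P values in IH with all libraries, and to F7, F10, Mbl2 and F11, which were higher in IH at ZT4 and ZT8 (both results are given further on). They are read 5′ to 3′ along the gene, with AGGTCA or its complement TGACCT and, in F10 alone, CACGT in capitals. The positions are chr11:75439592-75439751 on the minus strand for Serpinf2, chr1:164151585-164151834 on the plus strand for F5, chr8:13025784-13026033 on the plus strand for F7, chr8:13037058-13037307 on the plus strand for F10, chr19:30232678-30232927 on the plus strand for Mbl2 and chr8:45262032-45262281 on the minus strand for F11. The window of Serpinf2 stops 90 bases short of the RefSeq start, where the GENCODE gene begins.
Serpinf2: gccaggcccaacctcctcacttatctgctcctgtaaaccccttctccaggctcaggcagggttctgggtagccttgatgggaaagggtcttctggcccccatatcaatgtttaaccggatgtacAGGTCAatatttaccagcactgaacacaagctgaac
F5: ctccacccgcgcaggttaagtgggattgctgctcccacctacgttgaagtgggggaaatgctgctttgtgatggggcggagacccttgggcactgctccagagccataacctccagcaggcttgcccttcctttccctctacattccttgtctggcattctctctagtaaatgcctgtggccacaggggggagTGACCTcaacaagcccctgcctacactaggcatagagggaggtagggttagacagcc
F7: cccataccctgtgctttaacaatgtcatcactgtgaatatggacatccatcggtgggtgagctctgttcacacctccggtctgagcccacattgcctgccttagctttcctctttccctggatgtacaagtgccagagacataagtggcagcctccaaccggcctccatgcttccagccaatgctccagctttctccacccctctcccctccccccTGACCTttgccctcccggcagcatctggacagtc
F10: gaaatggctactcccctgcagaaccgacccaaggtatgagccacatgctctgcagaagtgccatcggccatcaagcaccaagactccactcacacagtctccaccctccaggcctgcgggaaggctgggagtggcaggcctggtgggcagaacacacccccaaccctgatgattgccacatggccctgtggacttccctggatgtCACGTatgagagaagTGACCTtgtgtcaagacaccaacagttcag
Mbl2: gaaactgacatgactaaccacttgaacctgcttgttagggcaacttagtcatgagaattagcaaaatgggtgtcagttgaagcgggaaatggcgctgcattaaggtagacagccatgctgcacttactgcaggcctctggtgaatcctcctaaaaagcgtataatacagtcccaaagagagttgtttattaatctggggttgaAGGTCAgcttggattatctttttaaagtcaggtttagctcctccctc
F11: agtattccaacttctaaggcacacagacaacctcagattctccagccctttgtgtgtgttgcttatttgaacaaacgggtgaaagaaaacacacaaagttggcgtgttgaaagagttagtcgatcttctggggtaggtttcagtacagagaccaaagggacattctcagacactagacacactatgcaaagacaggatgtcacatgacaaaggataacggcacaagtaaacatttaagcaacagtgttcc

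F7 and F10, which lie side by side, both carried TGACCT, 34 and 30 bases upstream, and F11 held none of the 10 motifs searched. Of the other members called higher in IH at ZT4 and ZT8, Proc had no window. The window of Serpinc1, not shown, also held none of the 10 motifs. Mbl1, among the 6 members with the smallest rhythm P in IH, likewise had a window without any of them, not shown. GTTAAT, the core of the HNF1 site, stood in 7 of 28 windows (25%) against 6.52% of all windows, namely those of C4bp, C8a, C8b, F13b, Hc, Proz and Vtn. The clock letters CACGTG (E-box) and TTATGTAA (D-box) stood in 0 of 28 windows, against 6.05% and 0.862% of all. The hypoxia core ACGTG, which also forms part of an E-box, stood in 5 (17.9%) against 16.6%, in Cpb2, F10, Masp2, Proz and Serpind1. TTCNNNGAA (STAT) stood in 4 (14.3%) against 7.18%, TATAAA in 3 (10.7%) against 13%, and TGACGTCA (CRE) in 1 (3.57%) against 1.62%. CAAAGTCCA (HNF4) and TTGCGCAA (C/EBP) stood in 0, against 0.381% and 0.17%. All motifs were searched on both strands, and a match describes letters only.

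The study asked how chronic IH changes the daily program of the liver, and the time course of each member was therefore fitted with a 24-h cosine in each condition. Over all 36 libraries, 7 of 35 members were rhythmic in control mice at a nominal P of 0.01 or less, where 20% of all genes tested were, and 12 of 35 in IH mice, where 39.9% were. Without the 3 libraries with high Saa1, 14 members were rhythmic in control (27.4% of genes) and 16 in IH (42.4% of genes). With all libraries the members' shares lay near those of all genes. An F test over the 6 time points, which assumes no cosine, called 5 members in control (21% of genes) and 9 in IH (39.7% of genes) with all libraries, and 5 in control (33.4% of genes) and 14 in IH (40.4% of genes) without the 3. The 5 in control without the 3 libraries were F5, F11, Klkb1, Serpinf2 and Cfb. The other members called there, F9, Plg, C2, Mbl1, Serping1, C6, C8a, C9 and Hc, were called by the cosine alone. In whole liver, fewer cells of a type and less RNA per cell cannot be told apart. The adjusted p values of rhythms given below are from limma, adjusted over all genes tested. Many of the time points printed below are those of a member's highest or lowest group mean. Separation between such groups is therefore no further test of a rhythm. Serpinf2, F11, C2 and C6 were rhythmic in both conditions with all libraries, and without the 3 libraries 8 members were: Serpinf2, F11, C2, F5, Klkb1, Plg, Mbl1 and Cfb. In these 8 the control and IH peaks of each gene lay within 4 h of each other. In 6 of 8 the peak was earlier in IH, with a median shift of -0.88 h. The share of all genes rhythmic in both conditions and their shift were not computed here. The paper reports a slight advance in IH for the genes it found rhythmic in both, so the shift is not shown to be particular to the members.

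Serpinf2, which encodes alpha-2-antiplasmin, the main inhibitor of plasmin, had the widest daily swing and the largest SD over the 36 libraries of all members (0.41 on the log2 scale). In control mice it was 408, 415 and 418.5 FPKM at ZT4 and 199, 199.7 and 306.5 FPKM at ZT16, where the value of 306.5 came from the library with high Saa1. In IH mice it was 440.3, 408.5 and 391.5 FPKM at ZT4 and 199, 223 and 188 FPKM at ZT12. The ZT4 libraries were above every ZT12 and ZT16 library in both conditions. Without the 3 libraries the peak was fitted at ZT2.34 in control (adjusted p = 9.59e-05) and ZT2.90 in IH (adjusted p = 5.12e-06), and the peak stood 2.07-fold and 2.17-fold above the trough.

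Plg, the precursor of the clot-dissolving protease plasmin, followed a smaller rhythm of nearly the same timing. IH libraries held 950.0, 966 and 976 FPKM at ZT4 and 690.3, 736 and 714 FPKM at ZT16, without overlap. Control libraries held 934, 915 and 908 FPKM at ZT4 and 717, 727 and 929 FPKM at ZT16, and the value of 929 came from the library with high Saa1. The control rhythm had an adjusted p of 0.0132 without the 3 libraries (peak at ZT3.25) and did not pass with them (adjusted p = 0.214). In IH the adjusted p was 5.07e-06 without them and 0.000103 with them, with peaks at ZT4.41 and ZT3.89.

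Mbl1, a mannan-binding lectin that starts the lectin arm of complement, also peaked around lights-on. In IH mice it was 164, 206 and 139 FPKM at ZT0 and 98.6, 113 and 106 FPKM at ZT16, and the groups did not overlap, the value of 206 coming from the library with high Saa1. In control mice it was 137, 140.4 and 199.8 FPKM at ZT0 and 119, 97.3 and 158 FPKM at ZT16, with the 158 from such a library, and at ZT12 the library with high Saa1 held 264 FPKM beside 109.6 and 114 FPKM in its group mates. Without the 3 libraries the fitted peaks were at ZT1.42 in control (adjusted p = 0.0135) and ZT0.74 in IH (adjusted p = 0.000346). With all libraries the control rhythm did not pass (adjusted p = 0.786).

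F5, the cofactor that speeds the activation of thrombin, ran in the opposite phase and was lowest at lights-on. Its IH values were 36.5, 38.1 and 40.3 FPKM at ZT0 and 51.6, 51.9 and 59.1 FPKM at ZT8. In control mice they were 43.7, 42.7 and 44.1 FPKM at ZT0 and 47.95, 55.3 and 57.2 FPKM at ZT8. In each condition the ZT0 values lay below all ZT8 values. The peak was fitted at ZT10.42 in IH (adjusted p = 0.000138) and ZT11.49 in control (adjusted p = 0.00279) without the 3 libraries, of which control ZT12 replicate 2 held 28.8 FPKM beside 51.2 and 57.0 FPKM in its group mates. With all libraries the control rhythm did not pass (adjusted p = 0.758), and it passed when control ZT12 replicate 2 alone was left out.

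F11, the protease of the intrinsic pathway that activates factor IX, peaked in the light phase in both conditions, and its IH swing was wider in value. In IH mice F11 was 48.7, 46.9 and 48.1 FPKM at ZT8 and 21.6, 26.9 and 21.9 FPKM at ZT20. In control mice it was 36.4, 31.0 and 33.2 FPKM at ZT8 and 25.4, 23.9 and 27.0 FPKM at ZT20. Every IH value at ZT8 was above every control value at that time. The amplitude without the 3 libraries was 0.43 in IH and 0.22 in control on the log2 scale, with peaks at ZT6.67 and ZT6.82, and the test of the difference between the cosines had an adjusted p of 0.58. Klkb1, the neighbouring gene, encodes plasma prekallikrein of the contact system and was rhythmic in both conditions without the 3 libraries, with peaks at ZT5.03 in IH and ZT7.50 in control.

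C2, the protease of the classical and lectin C3 convertase, rose in the course of the day and peaked in the dark phase in control and near lights-off in IH. In IH mice it was 37.3, 37.1 and 35.2 FPKM at ZT0 and 52.7, 49.6 and 57.2 FPKM at ZT12, without overlap. In control mice it was 39.6, 42.0 and 40.3 FPKM at ZT0, 53.6, 47.9 and 46.9 FPKM at ZT12 and 53.1, 43.7 and 50.95 FPKM at ZT20. With all libraries its peak was fitted at ZT12.74 in IH and ZT15.68 in control. The difference between the cosines had an adjusted p of 0.41 without the 3 libraries.

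**Figure D1:**
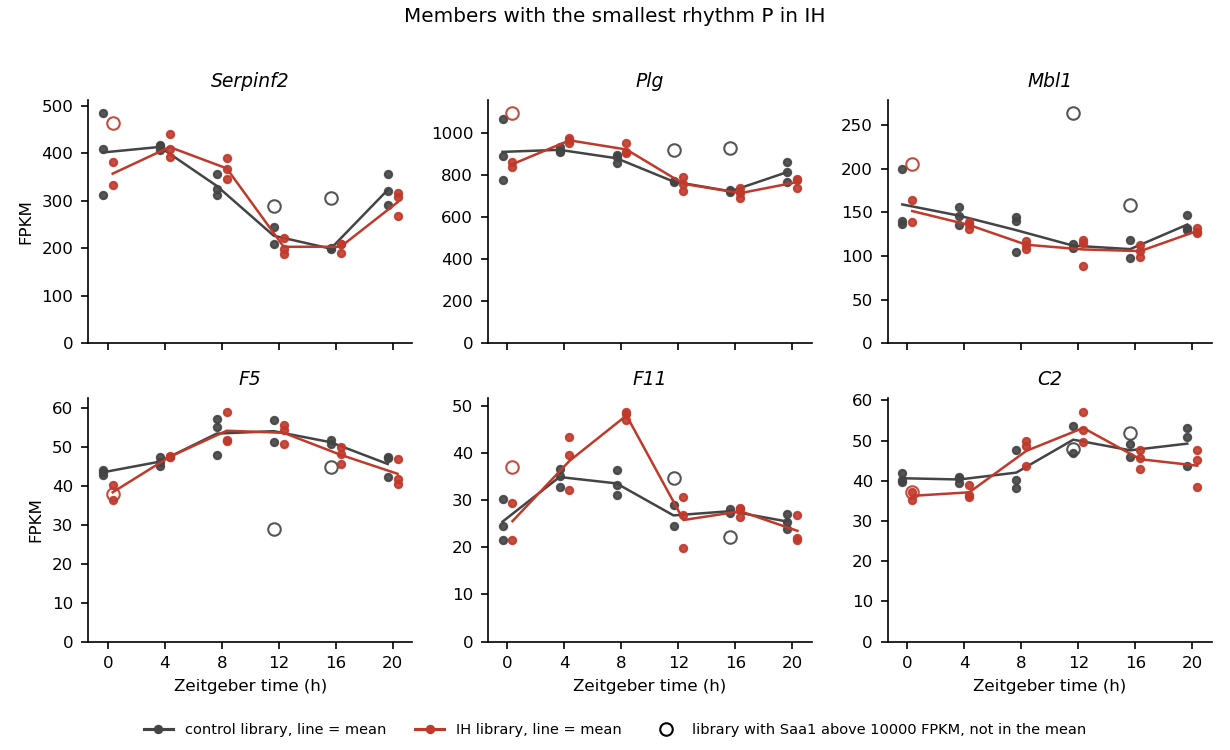
FPKM (vertical axes, from 0) of the 6 members with the smallest rhythm P in IH against zeitgeber time in hours. Points are single libraries of control (grey) and IH (red) mice, open circles are the 3 libraries with Saa1 above 10000 FPKM, and lines join the group means without those 3; Serpinf2 falls from about ZT4 to ZT12 in both conditions, and F11 at ZT8 is higher in all 3 IH libraries.

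The remaining rhythmic members fell into roles. Among the 5 anticoagulants, 0 were rhythmic in control and 4 in IH without the 3 libraries, where 27.4% and 42.4% of all genes were. With all libraries 0 and 1 were, where 20% and 39.9% of all genes were. By the test on 6 levels 0 and 3 passed without the 3 libraries, where 33.4% and 40.4% of all genes did. Proc, the precursor of activated protein C, peaked at ZT7.79 in IH (adjusted p = 0.000803), its cofactor Pros1 at ZT9.11 (adjusted p = 0.00088), and the serpins Serpinc1 (antithrombin) and Serpind1 (heparin cofactor II) at ZT1.52 and ZT1.28. In control the adjusted p was 0.182 for Proc, 0.175 for Pros1, 0.641 for Serpinc1 and 0.0845 for Serpind1. The control peak of Serpind1 was fitted at ZT1.09, near that in IH. With all libraries Serpind1 passed in neither condition, and its adjusted p was 0.0537 in control and 0.129 in IH. A P below the limit in IH alone is no difference between the conditions. Without the 3 libraries the adjusted interaction p was 0.41 for Proc, 0.46 for Serpinc1, 0.77 for Pros1 and 0.88 for Serpind1. F13b, the carrier subunit of the fibrin cross-linking enzyme, and Hrg, a histidine-rich plasma protein that binds plasminogen, also passed in IH alone without the 3 libraries. So did Masp1, a protease of the lectin pathway, and Mbl2, the other mannan-binding lectin. Their IH peaks lay between ZT7.18 and ZT9.53. Masp1 just missed the nominal limit in control (adjusted p = 0.0396), with peaks at ZT8.63 in control and ZT8.89 in IH. With all libraries Masp1 did not pass in IH either. For F13b, Hrg and Mbl2 the adjusted p in control was 0.763, 0.880 and 0.263. The adjusted interaction p was 0.51 for F13b, 0.47 for Hrg, 0.89 for Masp1 and 0.52 for Mbl2. In these 4 the IH peak stood between 1.23-fold and 1.34-fold above the trough.

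**Figure D2:**
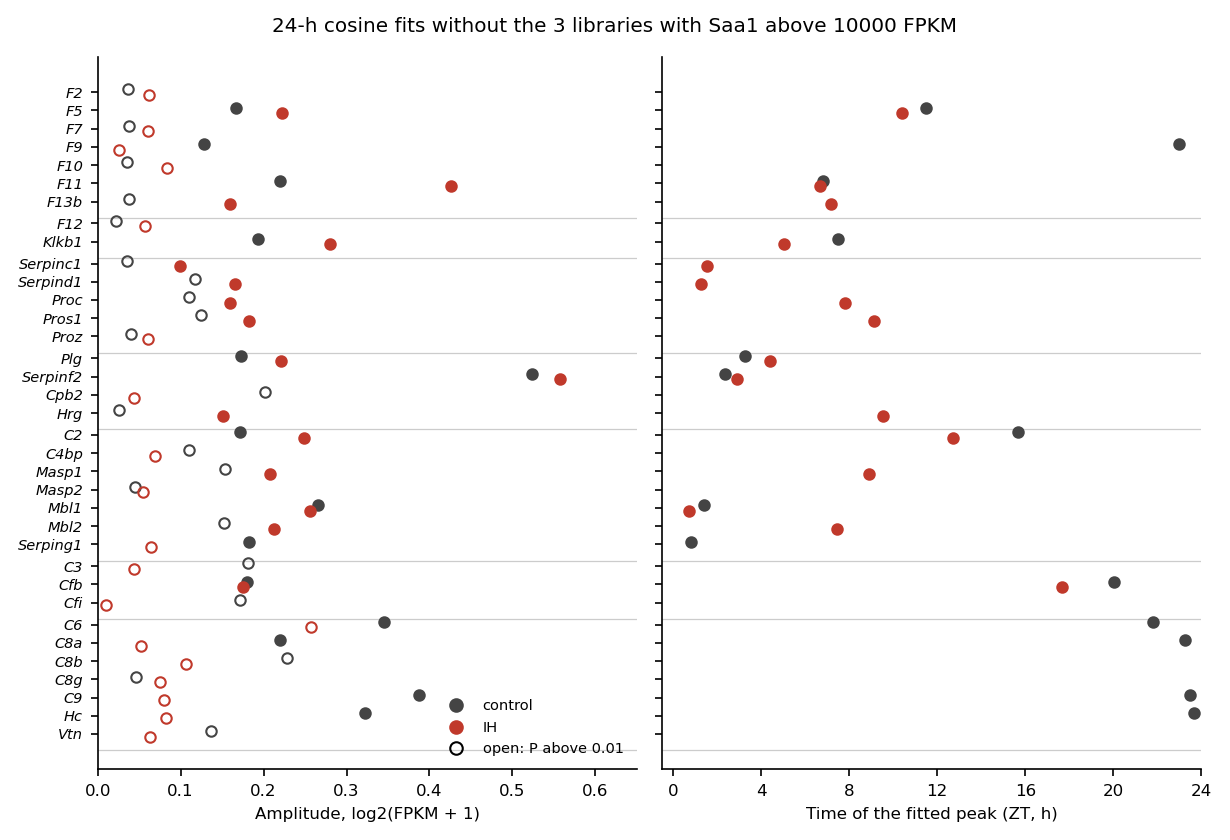
Amplitude of the fitted 24-h cosine in log2(FPKM + 1) units (left) and time of its peak in zeitgeber hours (right) for each of the 35 members, in control (grey) and IH (red) mice, without the 3 libraries with Saa1 above 10000 FPKM. Filled points have P of 0.01 or less, and peaks are drawn for those alone; C6, C8a, C9 and Hc of terminal complement are filled in control and open in IH.

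Genes of the terminal complement pathway were rhythmic in control in 4 of 7 cases without the 3 libraries and in 0 of 7 in IH, where 27.4% and 42.4% of all genes were. With all libraries the counts were 3 and 1, where 20% and 39.9% of all genes were rhythmic. By the test on 6 levels, 0 of 7 passed in either condition without the 3 libraries, where 33.4% and 40.4% of all genes did. With all libraries C6 and C9 passed that test in control and 0 in IH, where 21% and 39.7% of all genes did. C9, which forms the wall of the membrane pore, was 241, 316 and 340.3 FPKM at ZT0, 355, 238 and 318 FPKM at ZT20 and 159.9, 172 and 176 FPKM at ZT12 in control mice. In IH mice C9 was 254, 273 and 187 FPKM at ZT0, 206, 201 and 200.2 FPKM at ZT20 and 248, 172 and 208 FPKM at ZT12. The control groups of ZT0 and ZT20 did not overlap with that of ZT12, and the IH groups did. The control peak of C9 was fitted at ZT23.48 (adjusted p = 0.00811, 1.71-fold over the trough), and in IH the adjusted p was 0.579 (1.12-fold).

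Hc, which encodes complement C5, was 117, 139 and 168 FPKM at ZT0 and 82.2, 126 and 95.9 FPKM at ZT12 in control, with the value of 126 from the library with high Saa1. In IH it was 142, 152.5 and 98.3 FPKM at ZT0 and 124, 114 and 103.5 FPKM at ZT12. Its control peak was at ZT23.69 (adjusted p = 0.00994 without the 3 libraries, and adjusted p = 0.0975 with them), and in IH it did not pass (adjusted p = 0.454). C8a, a chain of the C8 complex, had its control peak at ZT23.27 (adjusted p = 0.0114), and in IH it did not pass (adjusted p = 0.746). C6, which binds C5b at the start of the pore, ran between 81.7 ± 9.62 (SD, n = 3) FPKM at ZT12 and 143 ± 23.9 FPKM at ZT20 in control, and between 81.1 ± 14.3 FPKM at ZT8 and 128 ± 6.27 FPKM at ZT20 in IH. C6 was rhythmic in both conditions with all libraries, with peaks at ZT21.66 and ZT20.26, and without the 3 its IH rhythm missed the nominal limit of 0.01 (adjusted p = 0.0246).

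**Figure D3:**
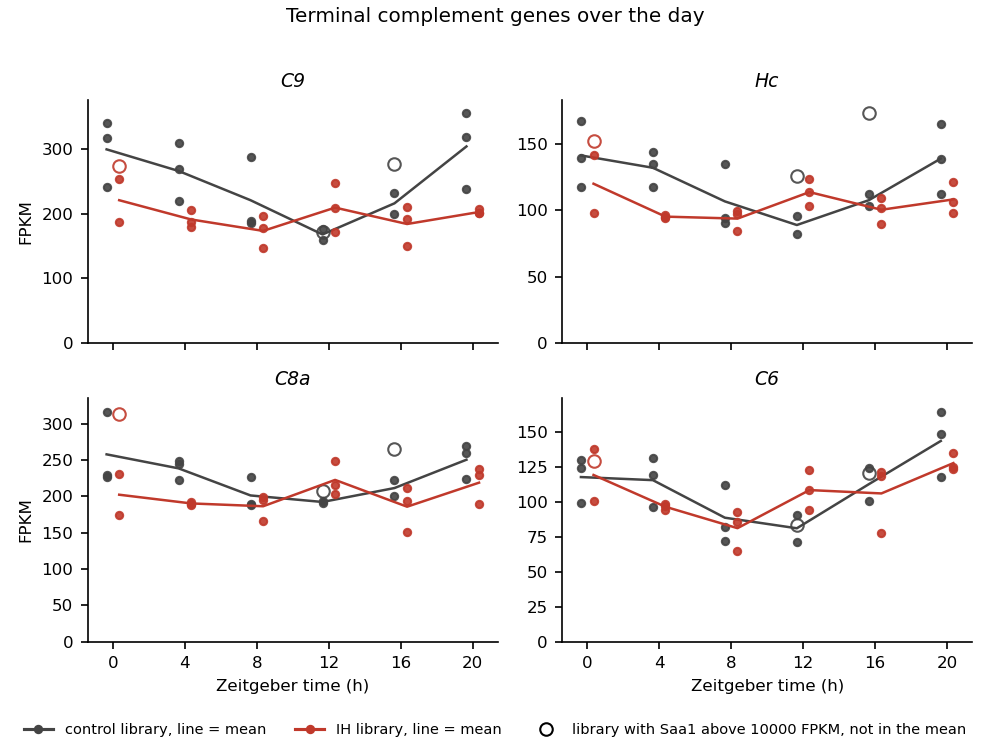
FPKM (vertical axes, from 0) of C9, Hc, C8a and C6 against zeitgeber time in hours. Points are single libraries of control (grey) and IH (red) mice, open circles are the libraries with Saa1 above 10000 FPKM, and lines join the group means without them; C9 in control falls to 168 FPKM at ZT12 while the IH line stays between 173 and 221 FPKM.

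The interaction test asked whether the cosine itself differed between the conditions. It called 0 of 35 members at an adjusted p of 0.05 and 0% of all genes. With all libraries 2 members had an unadjusted P under 0.05, where 4.91% of all genes did. Without the 3 libraries 11 of 35 did, where 10.7% of all genes did, and the smallest adjusted p was 0.41. These 11 were F9, Hc, C2, Proc, Serping1, C9, Cfi, Cpb2, Serpinc1, C8b and C8a, of which Hc, C9, C8b and C8a are terminal complement genes. The smallest unadjusted P was 0.0112, for F9, the vitamin K-dependent protease that activates factor X together with factor VIII. In control, F9 was rhythmic with and without the 3 libraries (adjusted p = 0.0486 and adjusted p = 0.019, peak near ZT23), and in IH it did not pass (adjusted p = 0.663 and adjusted p = 0.641). In a form of the test that takes the 6 time points as separate levels, 0 members were called. There, 5 had an unadjusted P under 0.05 with all libraries, where 14.2% of all genes did, and 8 without the 3, where 19.6% did.

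Over all time points, the level of 0 of 35 members was called different in IH by limma at an adjusted p of 0.05, where 0.356% of all genes did, and 5 members had an unadjusted P under 0.05, where 10.8% of all genes did. These 5 were Serpinc1, higher in IH by 0.08, and Serping1, C8a, C9 and Hc, lower by -0.14, -0.15, -0.29 and -0.21 on the log2 scale. The smallest adjusted p was 0.151, for C9. Without the 3 libraries 0 members were called, where 1.38% of all genes were, 9 had an unadjusted P under 0.05, where 14.6% of all genes did, and the smallest adjusted p was 0.0787, again for C9. The median of the members was -0.03, and that of all genes was 0.03.

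At ZT4 and ZT8, within and at the end of the daily hypoxia, 6 of 35 members were higher in IH at an adjusted p of 0.05, where 6.05% of all genes were, and 0 were lower, where 1.93% of genes were. The 6 were 3 procoagulant proteases, 2 anticoagulants and a lectin, and the median of the 35 members was 0.03, near the 0.04 of all genes. The sum of the hepatocyte markers, of which Alb averaged 32510 FPKM over all libraries, was separate between the conditions in this window. It ran from 36431 to 48643 FPKM in control and from 49204 to 53716 FPKM in IH, without overlap. Of the 8 markers 2 were called higher, Apoa1 and Asgr1. Alb, Ttr, Cps1 and Tat were above 0 without passing, and Hnf4a (-0.21) and Apob (-0.10) were below 0 without passing. The sum of the abundant plasma protein genes was also separate, from 67868 to 84841 FPKM in control and from 86785 to 91956 FPKM in IH, and the part of these shifts in the differences of the members was not tested. Over 21 alternatives the adjusted p was under 0.05 in 17 for Proc, 16 for F7, 7 for F10, 7 for Mbl2, 6 for F11 and 5 for Serpinc1. Among the 21 is the fit without the 3 libraries with Saa1 above 10000 FPKM, which removes no library of this window and so repeats the main fit. The count fell to 0 without IH ZT4 replicate 3 or control ZT4 replicate 1. Other scalings changed these calls, although all 6 kept their direction. Rescaling by the median of ratios left Proc as the only member called higher, and quantile normalization called 0 members higher and 3 lower (Cfb, C8a and C9), while the genes called higher and lower over the whole liver went from 799 and 255 to 527 and 433 and to 524 and 429.

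F7, the protease that starts coagulation with tissue factor, was 43.3, 47.2 and 43.4 FPKM at ZT4 and 51.8, 44.4 and 47.0 FPKM at ZT8 in control mice, and 54.6, 49.9 and 55.5 FPKM at ZT4 and 55.2, 57.8 and 52.4 FPKM at ZT8 in IH mice. The groups were separate at each time point and overlapped when both were pooled. The difference was 0.23 ± 0.05 (SE) on the log2 scale, or 1.17-fold, with an adjusted p of 0.0231. F10, the adjacent gene, whose product makes thrombin from prothrombin, was 134, 132 and 127 FPKM at ZT4 and 150.4, 135 and 132 FPKM at ZT8 in control, and 144, 150.4 and 155 FPKM at ZT4 and 150.4, 163 and 148 FPKM at ZT8 in IH. The groups were separate at ZT4 and overlapped at ZT8, and the difference was 0.17 ± 0.04 (adjusted p = 0.0396).

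F11 at ZT4 was 35.1, 36.7 and 32.8 FPKM in control and 32.2, 39.4 and 43.3 FPKM in IH, so that the groups overlapped there and were separate at ZT8. Over both time points its difference was 0.31 ± 0.09 (adjusted p = 0.0463), with 5 of 6 IH values above the control mean. Proc was 262, 288 and 239 FPKM at ZT4 and 277, 315 and 310.1 FPKM at ZT8 in control, and 305, 328.5 and 328 FPKM at ZT4 and 347, 347 and 346 FPKM at ZT8 in IH, separate at both time points. Its difference was 0.25 ± 0.05 (adjusted p = 0.0231). Serpinc1, which inhibits thrombin and factor Xa, ran from 738 to 837.5 FPKM with a median of 798 in the 6 control libraries and from 849 to 907 FPKM with a median of 886 in the 6 IH libraries, without overlap. Its difference was 0.16 ± 0.04 (adjusted p = 0.0492).

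Mbl2 ran from 181 to 257 FPKM with a median of 211.5 in control and from 216 to 283.5 FPKM with a median of 254 in IH, and the groups overlapped. Its difference was 0.26 ± 0.07 (adjusted p = 0.0391). The related Mbl1 had a difference of -0.14 ± 0.07 (adjusted p = 0.224). F2 ran from 721 to 785 FPKM in control and from 795 to 845 FPKM in IH, without overlap, with a difference of 0.10 ± 0.04 that did not pass (adjusted p = 0.131). F12, which starts the contact system, had medians of 245 (control) and 256 FPKM (IH), with overlap (0.09 ± 0.04, adjusted p = 0.18). Plg had a difference of 0.07 ± 0.04 (adjusted p = 0.247).

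Terminal complement genes had the lowest median difference of the 7 roles in this window, -0.22 over 7 genes, and 0 of 7 passed. C9 ran from 185 to 309.5 FPKM with a median of 244 in control and from 147 to 206 FPKM with a median of 183 in IH, Hc from 90.5 to 144 FPKM with a median of 126 and from 84.6 to 99.8 FPKM with a median of 95.7. The differences were -0.39 ± 0.12 for C9 (adjusted p = 0.0665), -0.31 ± 0.10 for Hc (adjusted p = 0.0776), -0.22 ± 0.07 for C8a (adjusted p = 0.0706) and -0.29 ± 0.13 for C8b (adjusted p = 0.171). C8g, the small chain of C8, had 0.13 and Vtn, the inhibitor of the pore, 0.04. C3, on which all complement arms converge, ran from 813 to 1023 FPKM in control and from 834 to 1001 FPKM in IH (-0.04 ± 0.06, adjusted p = 0.74).

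**Figure D4:**
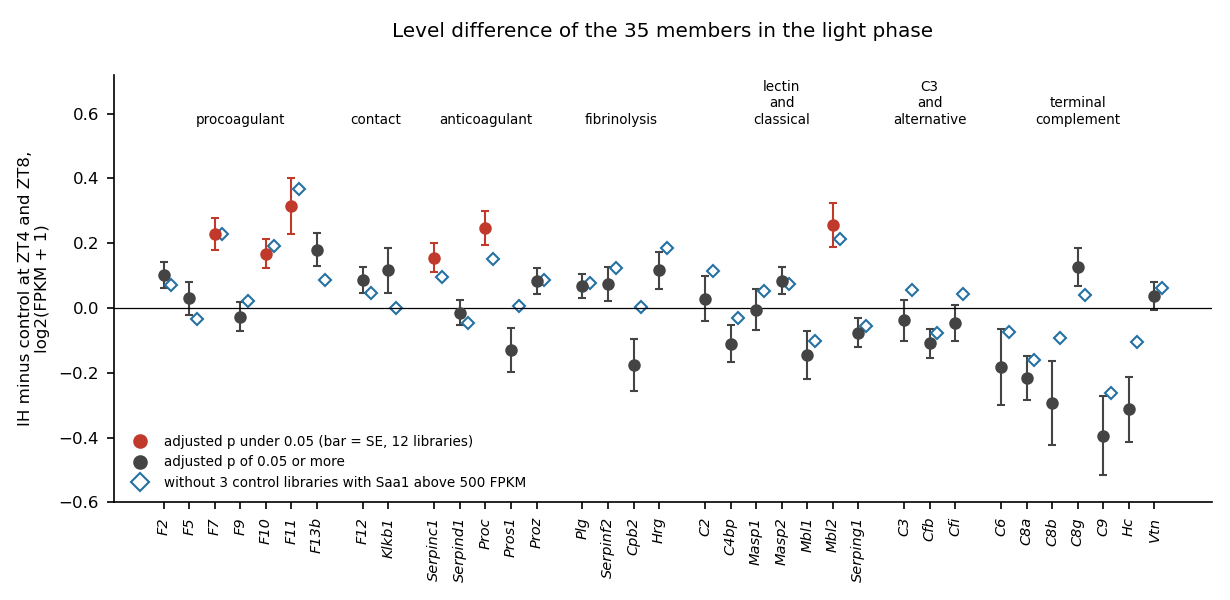
IH minus control at ZT4 and ZT8 in log2(FPKM + 1) units for the 35 members in order of role. Circles with SE bars are fitted over 12 libraries and are red where the adjusted p is under 0.05. Blue diamonds leave out the 3 control libraries with Saa1 above 500 FPKM. The diamonds of C9, Hc, C8a, C8b, Proc, Serpinc1 and Mbl2 lie nearer 0 than their circles, and those of F7, F10 and F11 do not.

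Saa1 varied between the control libraries of this window. It was 2357, 57.4 and 2435 FPKM at ZT4 and 828, 24.0 and 19.1 FPKM at ZT8 in control, and between 21.9 and 72.1 FPKM in the 6 IH libraries, and the difference did not pass (adjusted p = 0.169). The acute-phase list had a median difference of -0.40, with 1 of 26 genes called lower and 0 higher. Its sum ran from 8108 to 20132 FPKM in control, with a median of 10179 FPKM, and from 9859 to 11151 FPKM in IH, with a median of 10604 FPKM. Kupffer cell markers summed to between 25.1 and 59.9 FPKM in control and between 20.3 and 38.4 FPKM in IH, with 6 of 6 above 0 in every library. A further comparison, chosen after the data were seen, left out the 3 control libraries with Saa1 above 500 FPKM. It kept control ZT4 replicate 2 and control ZT8 replicates 2 and 3 beside the 6 IH libraries. With a single control library at ZT4, only the size of the differences is given. The differences were then 0.23 for F7, 0.19 for F10, 0.37 for F11, 0.15 for Proc, 0.10 for Serpinc1 and 0.21 for Mbl2, and -0.26 for C9, -0.10 for Hc, -0.16 for C8a and -0.09 for C8b. The part of the acute-phase genes in these differences was not tested.

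At single time points, where 1.88% of all genes were called at any of the 6, F9 alone was called, at ZT12. It was 51.1, 40.7 and 56.9 FPKM in control and 62.6, 62.8 and 64.2 FPKM in IH, without overlap, and the lowest value came from control ZT12 replicate 2, a library with high Saa1. Its difference was 0.36 ± 0.08 (adjusted p = 0.0471), and 0.22 ± 0.07 (adjusted p = 0.139) without the 3 libraries. Over 45 alternatives its adjusted p ran from 0.00136 to 0.21 and was under 0.05 in 12. Without the 3 libraries, Proc and Serpinc1 were called higher at ZT4 (0.29, adjusted p = 0.0314, and 0.20, adjusted p = 0.0457), where 7.96% of all genes were called higher, a share above that of the members.

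The 3 libraries with high Saa1 were each set beside the mean of their 2 group mates. All 3 libraries were above that mean for 16 of 35 members and below it for 5, against 9.48% and 36.3% of all genes tested. The median difference of the members was 0.13, 0.17 and 0.12 on the log2 scale in IH ZT0 replicate 2, control ZT12 replicate 2 and control ZT16 replicate 3. By role, the 16 were 3 of 3 genes of the C3 convertase and the alternative arm, 6 of 7 terminal complement genes, 3 of 7 lectin and classical genes, 3 of 4 fibrinolysis genes and F10. The 5 that were lower in all 3 were F5, F13b, Klkb1, Serpinc1 and Serpind1.

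C3 was 1988, 1574 and 1710.3 FPKM in these libraries, against 1137 and 1009.5, 822 and 953, and 983 and 961 FPKM in the respective group mates. Each of the 3 was above both of its mates, by 0.89, 0.83 and 0.82 on the log2 scale. Cpb2, which protects clots from plasmin as the fibrinolysis inhibitor TAFI, was 465, 241 and 382 FPKM, against 228 and 205, 178.5 and 181, and 211 and 182 FPKM. Serping1, the inhibitor of C1 and kallikrein, was 601, 533 and 625 FPKM, with all 6 mates between 377 and 443 FPKM. Vtn was 1725, 1831 and 1504.5 FPKM, with all mates between 1057.5 and 1349 FPKM.

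Control ZT12 replicate 2 stood apart from the other 2 in several members. Masp1 was 2.48 FPKM there beside 9.74 and 11.1 FPKM in its mates, Proz, the cofactor of the protein Z-dependent inhibitor, 40.6 FPKM beside 92.3 and 106.5, and F13b 27.0 FPKM beside 66.2 and 63.8. Mbl2 was 467 FPKM beside 313 and 257 FPKM there, and 127 FPKM beside 212 and 222 FPKM in IH ZT0 replicate 2, so that the libraries with high Saa1 lay on opposite sides of their mates. This library also had the highest sum of FPKM, 808274 where the other 35 lay between 561964 and 626371. Kupffer cell markers summed to 46.5, 166 and 44.2 FPKM in the 3 libraries and to between 17.4 and 59.9 FPKM in the rest, and 6 of 6 were higher in all 3. Neutrophil markers summed to 13.5, 209 and 11.3 FPKM against 0.271 to 6.53 FPKM, with Mpo at 0 in 22 libraries and Elane in 5. The part of these cells in the values of the members was not tested.

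**Figure D5:**
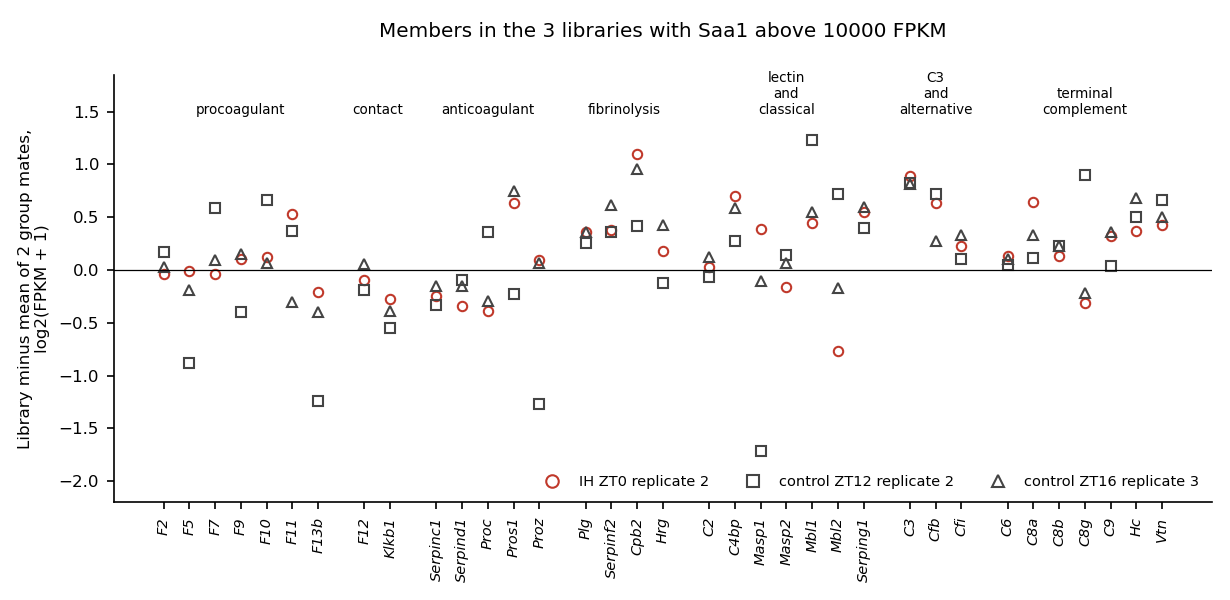
Difference of each library with Saa1 above 10000 FPKM from the mean of its 2 group mates in log2(FPKM + 1) units, for the 35 members in order of role. The IH library is red and the control libraries grey; all 3 points lie above 0 for C3, Cfb and Cfi, and below 0 for Klkb1 and Serpinc1.

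Related genes outside the 35 were compared as lists. At ZT4 and ZT8, 6.05% of all genes were called higher in IH and 1.93% lower. Of 28 other coagulation and fibrinolysis genes tested, 1 was higher in IH at ZT4 and ZT8 and 0 lower: Hgfac, which encodes the activator of hepatocyte growth factor (0.27 ± 0.05, adjusted p = 0.0155). Of 30 other complement genes, 0 were called. Of 14 abundant plasma protein genes, 3 were higher, Apoa1 (0.34), Rbp4 (0.34) and Apoh (0.30). Of 25 regulators of hepatocyte genes, 2 were higher, the clock output factors Tef (0.73) and Hlf (0.53), and 3 were lower, among them Stat3 (-0.65), which transmits the acute-phase signal in hepatocytes. In the acute-phase list Steap4 was lower (-1.37 ± 0.34, adjusted p = 0.0339). Rhythms without the 3 libraries were found in 10 and 14 of the 28 other coagulation genes, in control and IH. They were found in 3 and 7 of the 30 other complement genes, where 27.4% and 42.4% of all genes were rhythmic. Of the tested markers of other liver and blood cells, 6 of sinusoidal endothelium, 6 of stellate cells, 4 of cholangiocytes, 3 of T and B cells and 2 of erythroid cells, 0 were called at ZT4 and ZT8.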

How the data were processed

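Liver RNA was sequenced from 3 mice per condition and time point. The authors aligned reads to mm10 with TopHat2 2.1.1 and computed the deposited FPKM values with Cufflinks 2.2.1, per the labels' processing notes. Which annotation was used, and whether samples were scaled to each other, is not given in the sources used here. Tables were assigned to a condition by name. Symbols with repeated rows (280) were dropped. Values were analysed as log2(FPKM + 1), which understates changes of low genes, in R 4.3.3 with limma 3.58.1 (intensity trend), keeping genes that averaged 0.1 FPKM or more. Level tests used time point as a factor and Benjamini-Hochberg adjustment over all genes tested (0.05). Rhythms were tested by a 24-h cosine with a moderated F test (nominal P of 0.01), and the difference of cosines by an interaction. An F test over the 6 time points was an alternative for both. The fits were tested on simulated data. The members and lists were chosen with earlier results of these data known. Members were named if called, if among the 6 smallest rhythm P values per condition, if anchors (F2, F12, Serpinc1, Plg, C3, Hc, Mbl2), or if most variable, and any others were chosen after their values were seen. Of related genes, up to 8 called in a level test were named. Python 3.11.15 and matplotlib 3.10.9 drew the figures.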

Additional observations from a re-analysis of the deposited data

How the results depend on the processing

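Of the counts of members, those for the level over all time points and for the difference of cosines stayed at 0 under each alternative tried, except that a nominal P of 0.01 gave 1 member for the level. At ZT4 and ZT8 the count of 6 became 3 without the filter, 2 after rescaling to a common sum, 1 with the median of ratios, 3 with the replicate block and 10 at a nominal P of 0.01. With quantile normalization none of the 6 passed, and 3 other members were called lower. Leaving out single libraries gave 0 (without IH ZT4 replicate 3 or control ZT4 replicate 1) to 8 (without control ZT8 replicate 2). The fit without the 3 control libraries with Saa1 above 500 FPKM (added after the data were seen) kept only replicate 2 of control ZT4, and no count is given for it. At single time points the count of 1 at ZT12 became 0 without the filter, after rescaling to a common sum, with the median of ratios, without the 3 libraries with high Saa1 and with the replicate block, and 2 at a nominal P of 0.01, and leaving out single libraries gave 0 to 11, the latter without control ZT12 replicate 3. At a nominal P of 0.01, ZT4, ZT8 and ZT20 each had 1 member, and ZT4 had 2 called without the 3 libraries. Rhythmic members in control rose from 7 to 12 with quantile normalization and to 14 without the 3 libraries, with 5 (without control ZT0 replicate 3) to 11 (without control ZT12 replicate 2) when single libraries were left out, and in IH from 9 (without IH ZT8 replicate 1) to 16 (without IH ZT0 replicate 2). The causes of these changes were not tested, and each leave-one-out fit also holds fewer libraries. Residuals of same-numbered mice correlated by 0.05 on average over 18 pairs (-0.18 to 0.29), with 6 over 0.1, among them all 3 at ZT12 (0.14 to 0.29). Since not every pair was over 0.1 and no label ties the numbers to a shared cage or day, the numbers were not taken as pairs. FPKM hold no counts, which leaves the precision of low values unknown. P values set a difference against the spread between mice of this experiment, as moderated by limma, and 3 mice per group limit the tests at single time points.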
